A study of Mus musculus with 12 samples.

Results

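Expression of 10 genes of the cell death machinery was followed across sorted mouse CD4 T cells. They were the Bcl2 family members Bcl2, Bcl2l1, Bcl2l11, Mcl1, Bax, Bak1, Bid, Bbc3 and Pmaip1, and the death receptor gene Fas. The genes were chosen by name, and all their probe sets (groups of short probes on the array that report 1 transcript) were taken from the deposited table of log2 signals. Of the 10 genes, 9 had at least 1 probe set annotated to that gene alone, 28 probe sets in all, out of 18194 genes with such a probe set on the array. A probe set was kept for testing when it reached a log2 signal of 5 on at least 2 arrays, which left 19 probe sets of 8 of these genes among the 22024 kept in all. Bax was not analysed here.

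Expression was measured on 12 Affymetrix arrays, each hybridized with RNA from pooled, sorted cells of S1pr2V/+ mice, which carry the fluorescent protein Venus at 1 copy of S1pr2, a receptor gene of the S1P family. The lymph node donors had received chicken gamma globulin (CGG) in complete Freund's adjuvant (CFA) under the skin 10 days earlier. Follicular helper T (Tfh) cells, which help B cells in germinal centres, were sorted as CD4+ CXCR5+ PD1-high CD44-high cells with high Venus (3 arrays) or low Venus (3 arrays). CXCR5+ PD1-intermediate CD44-high T helper (Th) cells gave 2 arrays, CXCR5-low PD1-low CD44-high Th cells gave 2 arrays, and naive CD44-low CD62L-high CD4 T cells from spleen gave 2 arrays. All groups carried the reporter allele per the sample labels, and the lymph node groups came from pools of 4 or 6 mice and the naive cells from pools of 2. The series' own design text speaks of immunized or control mice while the labels name immunized donors for every sample, so the state of the naive donors is not settled. The labels do not say whether pools were separate experiments, and p-values measure the spread between these arrays alone.

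The 12 arrays fell into 3 array sets with distinct signal distributions, which the labels do not name, and every result below has to be read against them. Array set 1 held the first Venus-high, Venus-low and naive arrays, and array set 2 the second Venus-high, Venus-low and naive arrays with the first PD1-low array. Array set 3 held the third Venus-high and Venus-low arrays, both PD1-intermediate arrays and the second PD1-low array. Some probe sets were displaced as a whole in 1 array set, by over 3 log2 units against each of the others: 542 in set 1, 3289 in set 2 and 233 in set 3. Of the kept member probe sets, that of Pmaip1 was displaced in this way, in set 3. Differences are therefore given from the limma fit of 5 groups and, beside it, from the same fit with array set as a term, and where both groups of a comparison shared a set, within that set. The 6 measured T cell genes had mean levels between 13.68 and 14.34 on all arrays. Cd79a and Ms4a1 of B cells, Cd8a of CD8 T cells, Ncr1 of NK cells and Lyz2, Cd14 and Csf1r of myeloid cells were below 5 on every array, while 3 of 5 B cell, 3 of 5 CD8 T and NK cell and 1 of 7 myeloid genes reached 5 on some array. Some of these followed the groups: Cd22 averaged 12.5 in Venus-high Tfh, against 2.78 in naive cells, Cd68 9.10 against 3.97, Gzma 7.45 against 2.59 and Klrd1 2.25 against 9.59 (n = 3 and 2). Cd79b, of the same B cell list as Cd22, ran the other way among the lymph node groups. Its means were 3.20 in Venus-high Tfh, 5.05 in Venus-low Tfh, 6.67 in PD1-intermediate Th, 7.41 in PD1-low Th and 2.71 in naive cells. The 5 germinal centre B and plasma cell genes measured had mean levels of 6.27 to 7.54 in Venus-high Tfh, 5.51 to 6.69 in Venus-low Tfh, 4.93 to 5.09 in PD1-intermediate Th, 3.93 to 4.39 in PD1-low Th and 3.84 to 3.97 in naive cells. Of these Mef2b averaged 7.69 in Venus-high and 2.91 in Venus-low Tfh. It reached 5 on the 3 Venus-high arrays and on no other, so it was kept through the group where it is high, and this is a description. In Venus-high and Venus-low Tfh, Xbp1 averaged 10.51 and 10.55, Sdc1 7.94 and 8.23 and Jchain 6.46 and 5.91. Gcsam was below 5 on every array. The B cell genes had mean levels of 4.55 to 5.14 in Venus-high Tfh, 4.41 to 5.45 in Venus-low Tfh, 4.71 to 4.73 in PD1-intermediate Th, 3.94 to 4.09 in PD1-low Th and 2.44 to 3.31 in naive cells. Pax5, 1 of these, was displaced between array sets, at 2.05, 5.67 and 2.05 in Venus-high Tfh. The part of these marker genes in the results was not tested.

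The Bcl2 family controls the mitochondrial route to apoptosis. Survival members such as Bcl2, Bcl2l1 (Bcl-xL) and Mcl1 bind and restrain the pore-forming proteins Bax and Bak1, and the BH3-only proteins Bcl2l11 (Bim), Bid, Bbc3 (Puma) and Pmaip1 (Noxa) oppose them. Fas is the cell surface receptor for Fas ligand, which activates caspases from outside the cell, and germinal centre lymphocytes and activated T cells are known to carry it. Naive and memory T cells are known to depend on IL-7 and Bcl2, with Bim as the main opposing protein in mouse T cells.

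Bcl2, Bcl2l11 and Mcl1 were the members with probe sets lower in Venus-high Tfh than in naive cells in the fit with the array-set term. The DNA around an annotated start site of each is shown for that reason. The Mcl1 window lies within the annotated span of that gene (95656944 to 95663179 on chromosome 3), so it is not upstream of the whole gene. RefSeq start-site windows (250 bases before to 50 after the start, build GRCm38.p6) were matched by symbol for 9 of the 10 genes. Capitals mark exact matches on either strand to a GC box (GGGCGG) or, in Bcl2l11, also to 1 FOXO site (TGTTTAC), all read 5′ to 3′ on the gene's strand.
Bcl2, chr1:106714241-106714540, minus strand: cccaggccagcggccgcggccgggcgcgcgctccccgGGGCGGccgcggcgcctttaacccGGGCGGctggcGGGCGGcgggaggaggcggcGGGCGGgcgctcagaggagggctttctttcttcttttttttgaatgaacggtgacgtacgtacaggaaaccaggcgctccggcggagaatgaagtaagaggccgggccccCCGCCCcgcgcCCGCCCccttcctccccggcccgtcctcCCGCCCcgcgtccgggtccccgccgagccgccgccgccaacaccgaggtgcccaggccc
Bcl2l11, chr2:128125788-128126087, plus strand: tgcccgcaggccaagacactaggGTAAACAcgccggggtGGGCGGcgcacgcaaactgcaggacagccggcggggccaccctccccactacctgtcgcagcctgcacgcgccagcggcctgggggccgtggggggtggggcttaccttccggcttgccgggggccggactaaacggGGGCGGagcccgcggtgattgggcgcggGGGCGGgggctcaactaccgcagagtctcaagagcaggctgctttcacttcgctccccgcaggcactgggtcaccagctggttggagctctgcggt
Mcl1, chr3:95658471-95658770, plus strand: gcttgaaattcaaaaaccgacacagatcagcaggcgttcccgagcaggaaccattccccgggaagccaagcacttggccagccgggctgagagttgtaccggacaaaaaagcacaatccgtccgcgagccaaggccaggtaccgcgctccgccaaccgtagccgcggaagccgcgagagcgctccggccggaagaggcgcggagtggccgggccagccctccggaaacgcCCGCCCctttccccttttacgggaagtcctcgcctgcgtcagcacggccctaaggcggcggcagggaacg

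The Bcl2 window held 7 GC boxes and had 76% G and C, the Bcl2l11 window 3 GC boxes and 71%, and the Mcl1 window 1 GC box and 65.7%. Of all 32851 windows of this length, 35.7% held a GC box and 3.65% a FOXO site, and their median G and C content was 52.7%. A TATA box (TATAAA, in 13.6% of windows), an E-box (CACGTG, in 7.15%) and a cAMP response element (TGACGTCA, in 1.79%) were also searched for on both strands, and none of the 3 windows shown held 1 of them. The motifs searched do not overlap one another in these windows. A second Bcl2l11 start window, not shown, held 3 GC boxes and 0 FOXO sites and had 74% G and C.

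Across the comparisons, the members that moved were mostly Bcl2, Bcl2l11 and Mcl1, lower in Venus-high Tfh than in PD1-low Th or naive cells. In Venus-high Tfh minus naive cells, 1 of the 19 member probe sets passed an adjusted p of 0.05 in the fit without the array-set term (Bcl2, lower), where 7.77% of all kept probe sets passed, 2.33% lower. With the array-set term 13 of the 19 passed, 12 lower and 1 higher, where 29% of all passed, 15.2% lower and 13.8% higher. The lower ones were probe sets of Bcl2, Mcl1 and Bcl2l11, and probe sets of 1 gene are not separate members. A fit with the term and 1 probe set per gene, chosen after seeing the data, called 5 of 8 members, 3 lower and 2 higher. In that fit 4066 of 9892 genes passed, 2066 lower and 2000 higher. In Venus-high Tfh minus PD1-low Th, 1 member probe set passed without the term (Bcl2, lower; 6.1% of all, 2.67% lower) and 7 with it, all lower (24.2% of all, 11.7% lower). With the term and 1 probe set per gene, 3 of 8 members passed there, all lower, where 3428 of 9892 genes passed, 1547 lower.

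Comparisons between neighbouring groups gave fewer calls. In PD1-intermediate minus PD1-low Th, 0 member probe sets passed without the array-set term (1.99% of all), with 2 at an unadjusted p under 0.05, and 5 passed with the term, all lower (7.24% of all, 2.72% lower). With the term and 1 probe set per gene, 1 of 8 members passed there, lower, where 1266 of 9892 genes passed, 466 lower. In Venus-high minus Venus-low Tfh, 0 passed without the term (0.418% of all), with 0 at an unadjusted p under 0.05, and 1 passed with it (Bak1, lower; 8.98% of all, 5.21% lower). In Venus-low Tfh minus PD1-intermediate Th and in PD1-low Th minus naive cells, 0 passed in either fit by limma, with 0 at an unadjusted p under 0.05 without the term. The shares of all probe sets that passed were 0.182% and 1.9% without and with the term in the first of these, and 0.0318% and 0.25% in the second. The comparisons share arrays, so their results are not separate observations.

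Bcl2, which holds back the mitochondrial pore, was lower in both Tfh groups and in PD1-intermediate Th cells than in PD1-low Th and naive cells. Its leading probe set (1457687_at, the kept one of highest mean over all arrays) had log2 signals of 10.50, 10.12 and 12.49 in Venus-high Tfh, 10.73, 10.49 and 12.11 in Venus-low Tfh and 11.01 and 11.14 in PD1-intermediate Th cells. It had 12.46 and 13.28 in PD1-low Th cells and 13.50 and 13.30 in naive cells. The third Venus-high and Venus-low arrays stood well above the other arrays of their groups, and the third Venus-high array overlapped the lower PD1-low array. Every Venus-high array lay below both naive arrays, as was so for 8.84% of all kept probe sets.

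Against naive cells, Venus-high Tfh averaged 11.04 ± 1.27 (SD, n = 3) and naive cells 13.40 ± 0.14 (n = 2) on this probe set. With the array-set term the difference was -2.87 ± 0.30 (SE, 7.33-fold lower, limma adjusted p = 0.000671), and it was -2.99 in set 1 and -3.18 in set 2. Without the term it was -2.36 ± 0.74 and did not pass (adjusted p = 0.113). It passed with the term with each of the 12 arrays left out in turn, at -3.09 to -2.61. The adjusted p ranged from 0.000126 to 0.551 over 28 alternatives, 9 of which called it.

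Probe set 1440770_at, also of Bcl2, was the one member probe set to pass with and without the array-set term, and was singled out after its values were seen. It had 9.57, 8.90 and 10.52 in Venus-high Tfh, 10.04, 9.15 and 9.94 in Venus-low Tfh, 9.48 and 9.71 in PD1-intermediate Th, 12.04 and 12.43 in PD1-low Th and 12.21 and 12.84 in naive cells. No Tfh or PD1-intermediate array reached the PD1-low or naive arrays on this probe set, as was so for 2.99% of all kept probe sets. Venus-high Tfh minus naive was -2.86 ± 0.50 without the term (limma adjusted p = 0.00859) and -3.08 ± 0.39 with it (8.48-fold lower, adjusted p = 0.00155), with -2.64 in set 1 and -3.94 in set 2. Venus-high Tfh minus PD1-low Th was -2.58 ± 0.50 without the term (adjusted p = 0.018) and -2.52 ± 0.39 with it (5.75-fold lower, adjusted p = 0.00431), with -3.14 in set 2 and -1.91 in set 3.

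These calls for 1440770_at were made with the spread pooled over all 5 groups. With the arrays of the 2 groups alone, both lost their call (limma adjusted p = 0.151 against naive cells and 0.219 against PD1-low Th), and likewise without the arrays of set 2 (0.12 and 0.13). In the fit without the array-set term the call against naive cells was lost without the second naive array (-2.55, adjusted p = 0.0836), and that against PD1-low Th without the first Venus-high array (-2.53, 0.0554), the first PD1-low array (-2.77, 0.0865) or the second PD1-low array (-2.38, 0.133). Over 26 alternatives the adjusted p ranged from 0.000215 to 0.151 against naive cells and from 0.000816 to 0.219 against PD1-low Th.

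All 5 Bcl2 probe sets gave the same direction against naive cells, and all 5 passed there with the array-set term, with differences from -2.73 to -3.41 and folds from 6.63 to 10.6. The 5 correlated with one another over the 12 arrays at r between 0.76 and 0.96 (10 pairs, which share the arrays), given as a description. The widest spread was in 1443837_x_at, which had 10.83, 6.95 and 10.93 in Venus-high Tfh, against 12.54 and 12.28 in naive cells. Probe set 1422938_at had 5.54, 4.47 and 7.58 in Venus-high Tfh, against 8.75 and 8.50 in naive cells.

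**Figure D1:**
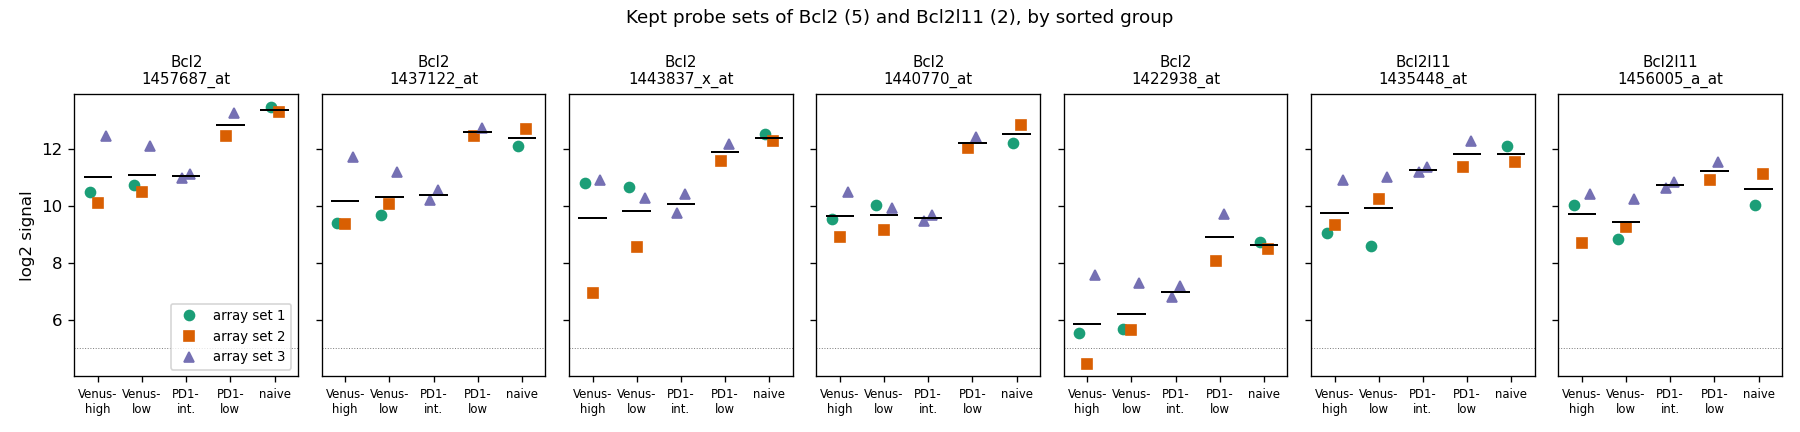
Log2 signal (y axis, shared) of the 5 kept Bcl2 and 2 kept Bcl2l11 probe sets on each array, by sorted group (x axis), with points shaped by array set, bars at the group means and a dotted line at a signal of 5. The PD1-low and naive arrays sit above the other arrays in the Bcl2 panels, except for the third Venus-high array of 1457687_at, and in most panels the Venus-high and Venus-low arrays of set 3 sit above those of sets 1 and 2.

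Against PD1-low Th cells, 4 of the 5 Bcl2 probe sets passed in Venus-high Tfh with the array-set term, at -1.61 to -2.81, and 1443837_x_at was at -2.64 ± 0.84 (limma adjusted p = 0.0628). The leading probe set was at -1.61 ± 0.30 (adjusted p = 0.00925), with -2.34 in set 2 and -0.79 in set 3. Without the first PD1-low array it was at -1.02 (adjusted p = 0.0536). Without that array 1440770_at was at -2.22 (adjusted p = 0.0507). Over 28 alternatives 6 called the leading probe set, at adjusted p from 0.00389 to 0.71.

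PD1-intermediate Th cells differed from PD1-low Th cells in the same way. With the array-set term 4 of the 5 Bcl2 probe sets passed, at -2.60 to -3.04, and 1443837_x_at was at -2.73 ± 0.95 (limma adjusted p = 0.165). The leading probe set was 11.07 ± 0.09 in PD1-intermediate Th and 12.87 ± 0.58 in PD1-low Th cells (SD, n = 2 each), a difference of -2.60 ± 0.34 with the term (6.07-fold lower, adjusted p = 0.00724) and of -1.80 ± 0.81 without it (adjusted p = 0.64). Within set 3, the one set with both groups, it was -2.21. Without the first PD1-intermediate array it was -2.54 (adjusted p = 0.0609), and over 28 alternatives 5 called it, at adjusted p from 0.00188 to 1. For 1440770_at the call ended without the first PD1-intermediate array (-2.92, adjusted p = 0.0838), the second PD1-intermediate array (-3.15, 0.0522) or the second PD1-low array (-3.42, 0.061).

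In order of level with the array-set term, the Bcl2 leading probe set was lowest in PD1-intermediate Th, then Venus-high Tfh, Venus-low Tfh, PD1-low Th and naive cells. Relative to naive cells these levels were -3.87, -2.87, -2.80 and -1.27. The step from Venus-low Tfh to PD1-low Th passed (1.54 ± 0.30, limma adjusted p = 0.0111), and the other steps did not pass, with adjusted p of 0.162, 0.901 and 0.254. Venus-high minus Venus-low Tfh was -0.07 ± 0.26 (95% interval -0.69 to 0.55), with -0.23, -0.37 and 0.38 in sets 1, 2 and 3. PD1-intermediate Th and naive cells shared no array set, and their difference in level rests on the other groups through the fit.

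Other cell properties differed between these groups in the same direction or its opposite, and their part in the Bcl2 difference was not tested. The 5 cycling-cell markers measured had mean levels of 9.53 to 10.95 in Venus-high Tfh, 10.69 to 12.94 in Venus-low Tfh and 10.69 to 11.35 in PD1-intermediate Th, against 6.13 to 8.27 in PD1-low Th and 6.26 to 6.58 in naive cells. Top2a, 1 of these 5, was displaced between array sets, at 10.07, 3.24 and 11.23 in Venus-high Tfh and 12.32, 4.28 and 13.12 in Venus-low Tfh. The ranges of these means therefore hold array-set shifts. The 6 regulatory T cell markers averaged 7.12 to 8.04 in Venus-high Tfh, 9.61 to 11.14 in Venus-low Tfh, 10.81 to 11.25 in PD1-intermediate Th, 11.36 to 12.60 in PD1-low Th and 8.66 to 8.71 in naive cells. These markers did not move together. In Venus-high Tfh minus naive with the array-set term, Ikzf2 was at 3.99 and Nrp1 at 4.97. Foxp3, Ikzf4, Il2ra and Gpr83 were at -3.25, -5.07, -3.66 and -6.43 there. In Venus-high minus Venus-low Tfh, Foxp3, Ikzf4, Il2ra and Gpr83 were at -3.99 to -5.01, Ikzf2 at -0.01 and Nrp1 at 0.14. The Venus-high means of Ikzf4, Il2ra and Gpr83 lay below 5. In such bulk samples fewer cells of a type and less RNA per cell cannot be told apart.

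Mcl1, a short-lived survival protein that T cells need at every stage, was lower in Venus-high Tfh than in naive cells by small amounts in the fit with the array-set term. Its leading probe set (1437527_x_at) had 14.26, 13.99 and 14.47 in Venus-high Tfh, 14.24, 14.05 and 14.25 in Venus-low Tfh, 14.44 and 14.50 in PD1-intermediate Th, 14.43 and 14.67 in PD1-low Th and 14.73 and 14.49 in naive cells. All 3 Venus-high arrays lay below both naive arrays, as was so for 8.84% of all kept probe sets. The third did so by a small margin, and its array set holds no naive array. Venus-high Tfh minus naive was -0.44 ± 0.11 with the array-set term (1.36-fold lower, limma adjusted p = 0.0221; -0.48 in set 1 and -0.49 in set 2) and -0.37 ± 0.23 without it (adjusted p = 0.591).

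The call for the leading probe set rested on several single arrays. With 1 array left out in turn, the fit with the term called it in 6 of 12 fits. The call ended without the first or the second Venus-high array (-0.41 and -0.39, limma adjusted p = 0.0864 and 0.07), without either PD1-intermediate array (-0.44 each, 0.0538), and without the first or the second naive array (-0.42 and -0.46, 0.0697 and 0.0523). Over 28 alternatives to the fit without the term 4 called it, at adjusted p from 0.0113 to 0.979. All 6 Mcl1 probe sets passed against naive cells with the array-set term, at -0.44 to -0.97 (1.36-fold to 1.96-fold lower). Without it none of the 6 passed, at adjusted p from 0.138 to 0.591.

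Probe set 1416881_at gave the largest of the Mcl1 differences. It had 11.04, 11.16 and 11.51 in Venus-high Tfh, against 11.94 and 12.46 in PD1-low Th and 12.17 and 11.96 in naive cells. Every Venus-high array lay below those of PD1-low Th and naive cells, as was so for 7.06% of all kept probe sets. The difference was -0.97 ± 0.11 against naive cells (limma adjusted p = 0.0011) and -0.90 ± 0.11 against PD1-low Th (adjusted p = 0.00192) with the term. In PD1-intermediate minus PD1-low Th it was -0.58 ± 0.13 (adjusted p = 0.0446). Probe set 1416880_at was the other Mcl1 probe set to pass against PD1-low Th (-0.39 ± 0.11, adjusted p = 0.0424).

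Bcl2l1, which encodes Bcl-xL, an activation-induced survival protein, did not pass in any of the 6 comparisons in either fit. Its 1 kept probe set (1420888_at) had 7.11, 7.02 and 7.70 in Venus-high Tfh, 7.46, 7.51 and 8.64 in Venus-low Tfh, 8.59 and 8.61 in PD1-intermediate Th, 7.13 and 8.60 in PD1-low Th and 7.25 and 6.36 in naive cells. The 5 arrays of set 3 held the 5 highest values, and the PD1-intermediate mean of 8.60 ± 0.01 (SD, n = 2) comes from that set alone. Venus-high minus Venus-low Tfh was -0.59 ± 0.21 with the term (95% interval -1.10 to -0.09, limma adjusted p = 0.144), at -0.35, -0.49 and -0.94 in sets 1, 2 and 3. Venus-high Tfh minus naive was 0.14 ± 0.25 (interval -0.45 to 0.72). The other 3 Bcl2l1 probe sets stayed below 5 on all arrays, between 2.09 and 4.75.

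**Figure D2:**
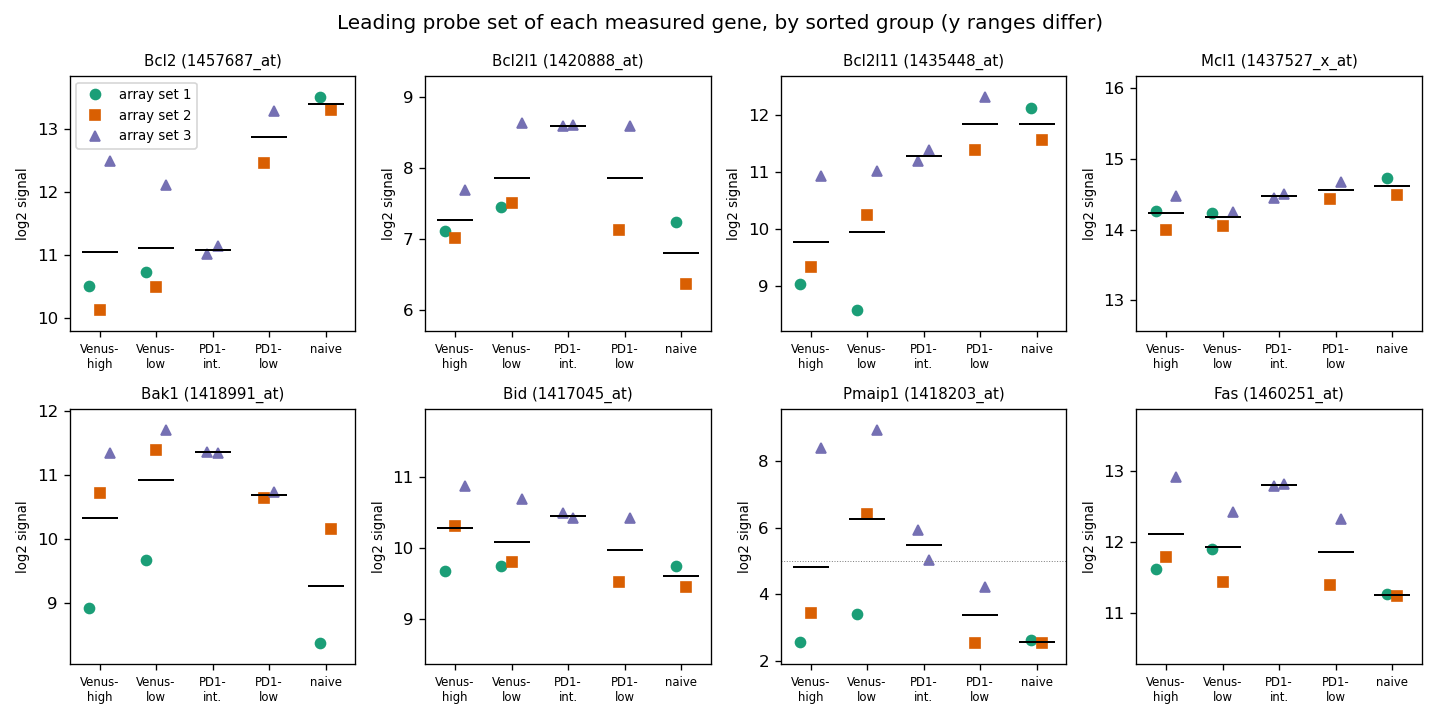
Log2 signal (y axis, ranges differ between panels) of the leading probe set of the 8 measured genes on each array, by sorted group (x axis), with points shaped by array set and bars at the group means. Bcl2, Bcl2l11 and Mcl1 are lower in the Tfh groups than in naive cells, and the set 3 arrays are the highest Tfh points in nearly every panel.

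Bcl2l11 encodes Bim, the BH3-only protein that opposes Bcl2 in lymphocytes, and it was lower in Tfh cells along with Bcl2. Its leading probe set (1435448_at) had 9.05, 9.34 and 10.93 in Venus-high Tfh, 8.59, 10.25 and 11.03 in Venus-low Tfh, 11.20 and 11.38 in PD1-intermediate Th, 11.38 and 12.31 in PD1-low Th and 12.11 and 11.56 in naive cells. Each Tfh array lay below every array of the other 3 groups, as was so for 2.86% of all kept probe sets, and the third Venus-high and Venus-low arrays came closest. The PD1-intermediate arrays lie in set 3 alone, and with the array-set term neither Venus-high minus PD1-intermediate (-0.49 ± 0.48, limma adjusted p = 0.745, a comparison added after seeing the data) nor Venus-low minus PD1-intermediate (-0.31 ± 0.48, adjusted p = 0.832) passed.

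Venus-high Tfh minus naive was -2.58 ± 0.43 with the array-set term (5.97-fold lower, limma adjusted p = 0.005; -3.06 in set 1 and -2.22 in set 2) and -2.06 ± 0.78 without it (adjusted p = 0.209). The call with the term held with each array left out in turn, at -3.39 to -1.82, and over 28 alternatives 7 called it, at adjusted p from 0.00148 to 0.668. Venus-high Tfh minus PD1-low Th was -1.68 ± 0.43 with the term (3.21-fold lower, adjusted p = 0.0317; -2.04 in set 2 and -1.38 in set 3) and -2.07 ± 0.78 without it (adjusted p = 0.231). Over 28 alternatives 5 called it, at adjusted p from 0.0148 to 0.71. That call held in 4 of the 12 fits that left out 1 array, without the first or second Venus-low array or either naive array. It ended without any Venus-high array (-1.71, -1.53 and -1.81, adjusted p = 0.0628, 0.109 and 0.0829), the third Venus-low array (-1.69, 0.0582), either PD1-intermediate array (-1.68 each, 0.0596) or either PD1-low array (-1.42 and -1.93, 0.21 and 0.0929).

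The Tfh groups did not separate on Bcl2l11. Venus-high minus Venus-low Tfh was -0.18 ± 0.37 (95% interval -1.07 to 0.71), and its sign differed between sets, at 0.46, -0.92 and -0.09 in sets 1, 2 and 3. The second kept probe set (1456005_a_at) had 10.03, 8.71 and 10.44 in Venus-high Tfh, 8.84, 9.26 and 10.25 in Venus-low Tfh, 10.63 and 10.87 in PD1-intermediate Th, 10.93 and 11.55 in PD1-low Th and 10.03 and 11.15 in naive cells. It overlapped between Venus-high Tfh and naive cells and did not pass (-1.20 ± 0.48 with the term, limma adjusted p = 0.112; 0.00 in set 1 and -2.43 in set 2), so the 2 probe sets gave different calls. The other 3 probe sets were not kept, and 1456006_at reached 5 on 1 array, at 5.68 in the first PD1-low array.

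Bak1, the pore-forming member measured here, was higher in both Tfh groups and in PD1-intermediate Th than in naive cells in the fit with the array-set term. In that fit it was lower in Venus-high than in Venus-low Tfh. Its kept probe set (1418991_at) had 8.92, 10.72 and 11.35 in Venus-high Tfh, 9.67, 11.40 and 11.70 in Venus-low Tfh, 11.36 and 11.35 in PD1-intermediate Th, 10.64 and 10.73 in PD1-low Th and 8.37 and 10.16 in naive cells. The arrays of set 1 were lowest and those of set 3 highest within each Tfh group, and the groups overlapped.

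Within sets the Tfh groups were ordered the same way throughout. Venus-high minus Venus-low Tfh was -0.75, -0.68 and -0.35 in sets 1, 2 and 3, and -0.59 ± 0.12 with the term (1.51-fold lower, limma adjusted p = 0.0321), against -0.59 ± 0.78 without it (adjusted p = 1). With 1 array left out in turn the fit with the term called it in 5 of 12 fits, at adjusted p from 0.0349 to 0.112. The call ended without the first or second Venus-high array (-0.53 and -0.52, adjusted p = 0.112 and 0.102), any Venus-low array (-0.54, -0.60 and -0.64, 0.104, 0.102 and 0.102) or either PD1-intermediate array (-0.59 each, 0.0773). The replicate numbers of the Tfh arrays coincide with the array sets, and with the replicate number as a block over the 6 Tfh arrays 0 member probe sets passed, where 637 passed in all. Over 29 alternatives 3 called Bak1 here, at adjusted p from 0.0177 to 1.

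Against naive cells, Venus-high Tfh was at 0.65 ± 0.14 with the term (1.57-fold higher, limma adjusted p = 0.0147; 0.55 in set 1 and 0.56 in set 2) and at 1.07 ± 0.87 without it (adjusted p = 0.768). The call ended without the first or the second naive array (0.67 and 0.63, adjusted p = 0.0522 and 0.0581), and over 28 alternatives 4 called it, at adjusted p from 0.00827 to 1. Venus-low Tfh minus naive, a comparison added after seeing the data, was 1.24 ± 0.14 (adjusted p = 0.0011), and Venus-low Tfh minus PD1-low Th was 0.90 ± 0.14 (adjusted p = 0.0049), both with the term. PD1-intermediate Th minus naive, also added, was 0.84 ± 0.19 with the term (adjusted p = 0.0396), and those groups share no array set. The other Bak1 probe set stayed between 2.05 and 2.35.

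Bid, a BH3-only protein that caspase-8 activates downstream of death receptors, did not pass in any of the 6 comparisons in either fit. Its leading probe set (1417045_at) had 9.68, 10.31 and 10.87 in Venus-high Tfh, 9.75, 9.81 and 10.69 in Venus-low Tfh, 10.49 and 10.42 in PD1-intermediate Th, 9.51 and 10.42 in PD1-low Th and 9.75 and 9.45 in naive cells. The groups overlapped, and the 5 set 3 arrays held the highest values. With the term Venus-high Tfh minus naive was 0.39 ± 0.20 (95% interval -0.08 to 0.85, limma adjusted p = 0.189) and Venus-high Tfh minus PD1-low Th was 0.50 ± 0.20 (0.04 to 0.97, adjusted p = 0.115). Probe set 1448560_at reached 5 on the 5 set 3 arrays and on no other, at 5.16 or less.

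Pmaip1 encodes Noxa, a BH3-only protein that binds Mcl1, and it ranged widely over the arrays. Its 1 probe set (1418203_at) had 2.57, 3.44 and 8.40 in Venus-high Tfh, 3.41, 6.41 and 8.92 in Venus-low Tfh, 5.91 and 5.02 in PD1-intermediate Th, 2.53 and 4.21 in PD1-low Th and 2.62 and 2.53 in naive cells. It reached 5 on 5 arrays, of which 4 were in set 3, and on no PD1-low or naive array. Venus-high Tfh minus PD1-low Th was 0.91 in set 2 and 4.19 in set 3, and 2.50 ± 0.86 with the term (limma adjusted p = 0.0804), and Venus-high Tfh minus naive was 0.86 ± 0.86 (adjusted p = 0.488). The probe set was kept through arrays of the Tfh and PD1-intermediate groups, the PD1-low and naive levels lie below 5, and it is displaced between array sets, so these differences are descriptions.

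Bbc3, which encodes Puma, a BH3-only protein induced by p53, was between 2.48 and 3.35 on all 12 arrays and was not tested. It averaged 2.54 ± 0.09 in Venus-high Tfh, 2.54 ± 0.09 in Venus-low Tfh (SD, n = 3 each), and had 2.48 and 2.48 in PD1-intermediate Th, 3.31 and 2.76 in PD1-low Th and 2.49 and 3.35 in naive cells.

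Fas was above 11 on all 12 arrays and did not pass in any of the 6 comparisons in either fit. Its 1 probe set (1460251_at) had 11.62, 11.79 and 12.91 in Venus-high Tfh, 11.91, 11.44 and 12.43 in Venus-low Tfh, 12.79 and 12.82 in PD1-intermediate Th, 11.40 and 12.32 in PD1-low Th and 11.27 and 11.24 in naive cells. All arrays of the 4 lymph node groups lay above both naive arrays, as was so for 6.23% of all kept probe sets (16.7% for the Venus-high and naive arrays alone), and in the groups that span array sets the set 3 array was the highest. Venus-high Tfh averaged 12.11 ± 0.70 (SD, n = 3) and naive cells 11.25 ± 0.02 (n = 2).

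With the array-set term the Fas difference of Venus-high Tfh minus naive was 0.54 ± 0.18 (95% interval 0.11 to 0.96, limma adjusted p = 0.0641; 0.36 in set 1 and 0.55 in set 2), and 0.86 ± 0.47 without it (adjusted p = 0.487). The adjusted p over 28 alternatives ran from 0.043 to 0.861, and 2 of them called it. In order of level with the term, naive cells were lowest, followed by PD1-low Th (0.15 above naive), Venus-low Tfh (0.35), Venus-high Tfh (0.54) and PD1-intermediate Th (0.60), and no step passed, with adjusted p from 0.443 to 0.942. Venus-high minus Venus-low Tfh was 0.18 ± 0.15 (interval -0.18 to 0.55), at -0.29, 0.35 and 0.49 in sets 1, 2 and 3.

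**Figure D3:**
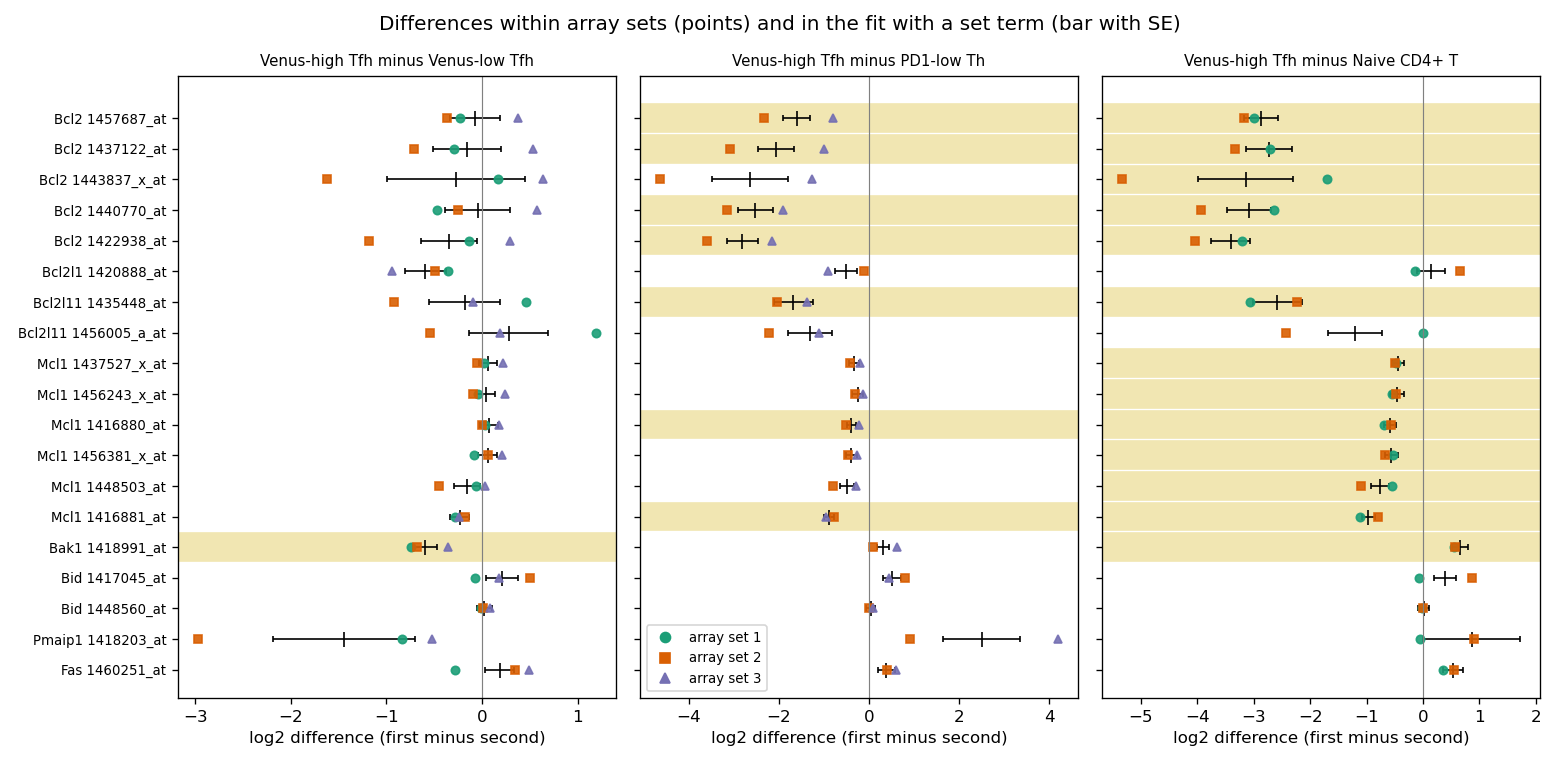
Log2 difference (x axis, first group minus second) of the 19 kept member probe sets in 3 comparisons, within each array set that holds both groups (points) and in the fit with the array-set term (tick with SE), with shaded rows where the fit's adjusted p is under 0.05. In Venus-high Tfh minus naive the within-set points of all 5 Bcl2 and all 6 Mcl1 probe sets lie below 0, and in Venus-high minus Venus-low Tfh the points of most probe sets lie on both sides of 0.

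Venus-low Tfh and PD1-intermediate Th cells were set against naive cells in the same fit, as comparisons added after seeing the data. Venus-low Tfh gave 13 member calls of 19 against naive cells, 12 lower and 1 higher, where 29.4% of all kept probe sets passed, 15.1% lower and 14.2% higher. Venus-low Tfh minus PD1-low Th, also added, gave 11, 9 lower and 2 higher, where 26.3% of all kept probe sets passed, 12.9% lower and 13.4% higher. Those lower were 4 Bcl2 probe sets (-1.54 to -2.48), 1 of Bcl2l11 (-1.50) and 4 of Mcl1 (-0.39 to -0.67), and those higher were Bak1 and Pmaip1, of which Pmaip1 was kept through arrays of the groups where it is high. PD1-intermediate Th against naive cells gave 6, 5 lower and 1 higher (Bak1), where 9.21% passed, 3.71% lower and 5.5% higher, with Bcl2 at -3.87 ± 0.40 on its leading probe set (limma adjusted p = 0.0027). Venus-high Tfh minus PD1-intermediate Th gave 0 with the array-set term, where 6.09% of all passed. These comparisons share arrays with those above, and their counts hold several probe sets of the same gene.

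The balance of survival and pro-death members was described without a test. On each array the leading probe set of each gene was set relative to its naive mean, and the mean of 4 pro-death members (Bcl2l11, Bak1, Bid and Pmaip1) was subtracted from the mean of 3 survival members (Bcl2, Bcl2l1 and Mcl1). Per array the balance was -0.22, -1.36 and -2.13 in Venus-high Tfh, -0.33, -2.07 and -2.20 in Venus-low Tfh, -1.68 and -1.42 in PD1-intermediate Th, -0.46 and -0.52 in PD1-low Th and 0.33 and -0.33 in naive cells. Both Tfh groups ran from near the naive arrays in set 1 to the lowest values in set 3. The balance averaged -1.23 ± 0.96 in Venus-high Tfh and -1.54 ± 1.05 in Venus-low Tfh (SD, n = 3 each), -1.55 ± 0.19 in PD1-intermediate Th and -0.49 ± 0.04 in PD1-low Th, against 0 ± 0.46 in naive cells (n = 2 each). Set 3 holds no naive array, so its values and these averages also hold array-set shifts.

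Within sets the balance was lower in Venus-high Tfh than in PD1-low Th and naive cells, and lower in PD1-intermediate than in PD1-low Th. Venus-high Tfh minus naive was -0.55 in set 1 and -1.03 in set 2, Venus-high Tfh minus PD1-low Th was -0.90 in set 2 and -1.60 in set 3, and PD1-intermediate minus PD1-low Th was -1.03 in set 3. For Venus-high Tfh minus naive, the survival mean differed by -1.20 in set 1 and -1.01 in set 2, and the pro-death mean by -0.66 in set 1 and 0.03 in set 2. Venus-high minus Venus-low Tfh was 0.11, 0.71 and 0.08 in sets 1, 2 and 3. The balance in Venus-low Tfh minus PD1-intermediate Th was -0.66 in set 3, and in PD1-low Th minus naive it was -0.14 in set 2.

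Pmaip1, below 5 on every PD1-low and naive array, weighed heavily on this measure. Without it the balance was 0.03, -1.12 and -0.87 in Venus-high Tfh, 0.10, -1.18 and -0.84 in Venus-low Tfh, -1.04 and -1.01 in PD1-intermediate Th, -0.54 and -0.34 in PD1-low Th and 0.38 and -0.38 in naive cells. The mean difference between Venus-high and Venus-low Tfh was then -0.01, against 0.30 with it. Fas lies outside this measure.

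**Figure D4:**
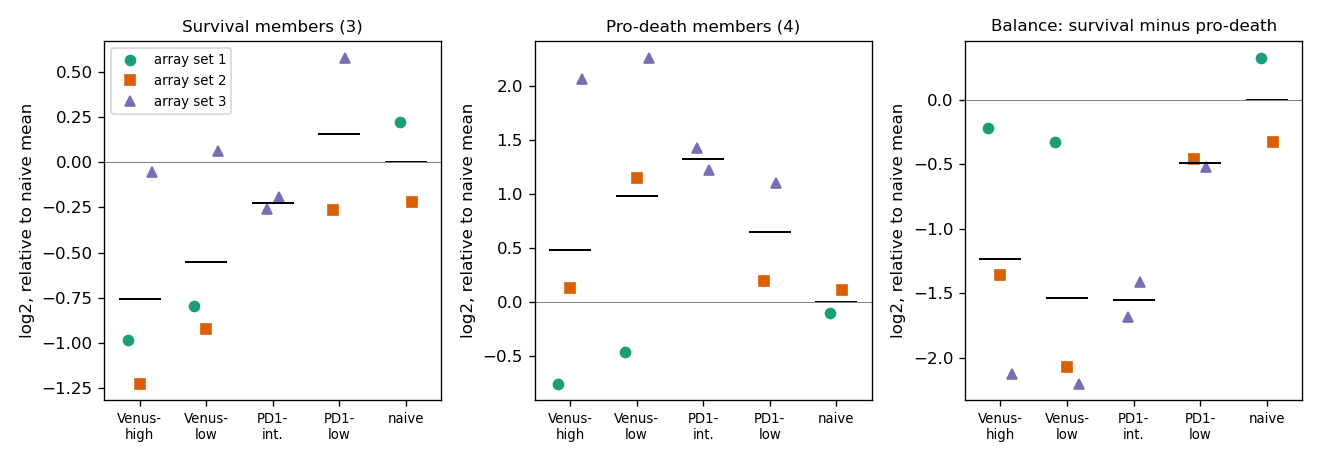
Mean log2 level relative to the naive mean (y axis) of the 3 survival members, of the 4 pro-death members, and of the first minus the second, on each array by sorted group (x axis), with points shaped by array set and bars at the group means. The balance is below 0 on every Tfh, PD1-intermediate and PD1-low array, and the set 1 Tfh arrays are the nearest to 0.

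Other genes of the same pathways were taken from lists, each gene by its leading probe set. Their counts in Venus-high Tfh minus naive stand beside the shares of all kept probe sets that passed, 13.8% higher and 15.2% lower with the array-set term and 5.44% and 2.33% without it. In Venus-high minus Venus-low Tfh those shares were 3.77% higher and 5.21% lower with the term. None of the 6 other survival members listed (the Bcl2a1 genes, Bcl2l2 and Bcl2l10) had a kept probe set. Of the 9 other pro-death members listed, 4 were kept, and with the array-set term 3 were higher and 0 lower in Venus-high Tfh than in naive cells, with a median difference of 1.58 beside -0.03 over all probe sets. Bad, a BH3-only protein held inactive by survival kinases, had 11.33, 10.91 and 10.54 in Venus-high Tfh, against 9.75 and 9.39 in naive cells, and was the one of these to pass in both fits (1.44 ± 0.17 with the term, limma adjusted p = 0.0012).

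Bik and Bnip3 gave the other calls. Bik, a BH3-only protein of the endoplasmic reticulum, was at 1.87 ± 0.26 (limma adjusted p = 0.0022), and Bnip3, a hypoxia-induced mitophagy protein, at 1.72 ± 0.24 (adjusted p = 0.0024). Against PD1-low Th all 4 kept genes were higher with the term, where 12.5% of all kept probe sets were, and in Venus-high minus Venus-low Tfh 1 was higher (Bnip3, 1.02 ± 0.21, adjusted p = 0.031).

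Death receptors, ligands and adaptors divided between the directions. Of 14 listed 10 were kept, and with the array-set term 2 were higher and 4 lower in Venus-high Tfh than in naive cells, with a median of -0.59. Fadd, the adaptor that joins Fas to caspase-8, had 9.55, 9.65 and 9.29 in Venus-high Tfh, against 8.75 and 7.89 in naive cells (1.14 ± 0.26, limma adjusted p = 0.018). The TNF receptor Tnfrsf1a was at -0.99 ± 0.14 (adjusted p = 0.0025) and the death receptor Tnfrsf25 at -2.45 ± 0.42 (adjusted p = 0.0055). Ripk3 was the other one higher, and Tnfsf10 and Cflar the others lower, named after their values were seen. Without the term none of the 10 passed, with Tnfrsf1a at an adjusted p of 0.102, Tnfrsf25 at 0.201 and Fadd at 0.0774.

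Between the Tfh groups 2 of these 10 passed with the term, both lower, and 0 without it. The TNF receptor Tnfrsf1b had 7.80, 7.27 and 8.63 in Venus-high Tfh, against 9.96, 10.73 and 11.12 in Venus-low Tfh. Its arrays did not overlap, as was so in this direction for 3.81% of all kept probe sets, and the difference was -2.70 ± 0.25 with the term (6.51-fold lower, limma adjusted p = 0.00436) and did not pass without it (adjusted p = 0.07). Ripk3, a kinase of necroptosis, was at -0.60 ± 0.10 (adjusted p = 0.0168), with overlapping arrays.

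Caspases and their inhibitors held some of the widest differences. Of 21 listed 18 were kept, 3 higher and 5 lower with the term (3 and 0 without it), with a median of -0.15. Casp1, the inflammatory caspase, had 13.50, 13.62 and 13.80 in Venus-high Tfh, against 8.57 and 7.97 in naive cells (5.16 ± 0.34, limma adjusted p = 0.00011). Casp4, which senses bacterial lipopolysaccharide in the mouse, was at 6.09 ± 0.59 (adjusted p = 0.00047). Birc5 (survivin), which acts in mitosis, was at 3.89 ± 0.41 (adjusted p = 0.00069) and fell by 1.79 ± 0.35 in Venus-high against Venus-low Tfh (adjusted p = 0.028). Those lower, named after their values were seen, were Casp2, Casp8, Endog, Birc3 and Dffb.

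In the p53 pathway list, 12 of 14 were kept and 5 were higher and 3 lower with the term (1 and 1 without it), with a median of 0.33. Cdkn1a (p21), an inhibitor of the cell cycle, had 8.66, 8.88 and 10.39 in Venus-high Tfh, against 3.35 and 2.57 in naive cells (5.89 ± 0.63). It was below 5 on every PD1-low and naive array and was kept through arrays of the Tfh and PD1-intermediate groups, so this difference is a description. The counts above include Cdkn1a, as 1 of the 5 higher with the term and as the 1 higher without it. Sesn1, a stress-induced regulator of growth signalling, was at -2.39 ± 0.26 (adjusted p = 0.00077) and Gadd45a, a DNA damage response gene, at 2.24 ± 0.50 (adjusted p = 0.015). The others that passed, named after their values were seen, were Trp53inp1, Zmat3 and Ei24, higher, and Mdm4 and Aen, lower. Aen was the 1 gene of this list to pass between the Tfh groups, at -0.44 ± 0.10 in Venus-high minus Venus-low with the term (adjusted p = 0.0473).

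Of 18 genes of the survival cytokine and kinase list 16 were kept, 1 higher and 7 lower with the term (1 and 3 without it), with a median of -0.44. Il2ra, below 5 on every Venus-high array, was among the 7 lower. The one higher, named after its values were seen, was Il2rb, a chain of the IL-2 and IL-15 receptors (3.47 ± 0.19, limma adjusted p = 6.36e-05). Il7r, the receptor chain through which IL-7 maintains Bcl2 in resting T cells, had 8.23, 7.42 and 8.73 in Venus-high Tfh, 10.86, 11.82 and 11.52 in Venus-low Tfh, 12.68 and 13.39 in PD1-intermediate Th, 14.35 and 14.42 in PD1-low Th and 14.56 and 14.50 in naive cells. It fell by 6.54 ± 0.42 against naive cells (limma adjusted p = 0.0001) and by 3.27 ± 0.36 against Venus-low Tfh (adjusted p = 0.0065) with the term, and passed in both comparisons without it. Its Venus-high arrays all lay below its Venus-low arrays, as was so for 3.81% of all kept probe sets. The part of Il7r in the Bcl2 levels was not tested.

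Between the Tfh groups 4 of the 16 passed with the term, all lower, and 1 without it (Il7r). Il2ra, the IL-2 receptor alpha chain and also 1 of the regulatory T cell markers, had 3.65, 3.90 and 4.83 in Venus-high Tfh, against 6.26, 10.69 and 10.08 in Venus-low Tfh (-4.88 ± 0.74). Klf2, a transcription factor of resting T cells, had 4.51, 2.99 and 4.92 in Venus-high Tfh, against 6.33, 7.98 and 7.74 in Venus-low Tfh (-3.21 ± 0.68). Both were below 5 on every Venus-high array and were kept through arrays of the other groups, so these differences are descriptions. The 4 calls with the term include both. Il4ra, the IL-4 receptor chain, was at -1.08 ± 0.22 (limma adjusted p = 0.0307).

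**Figure D5:**
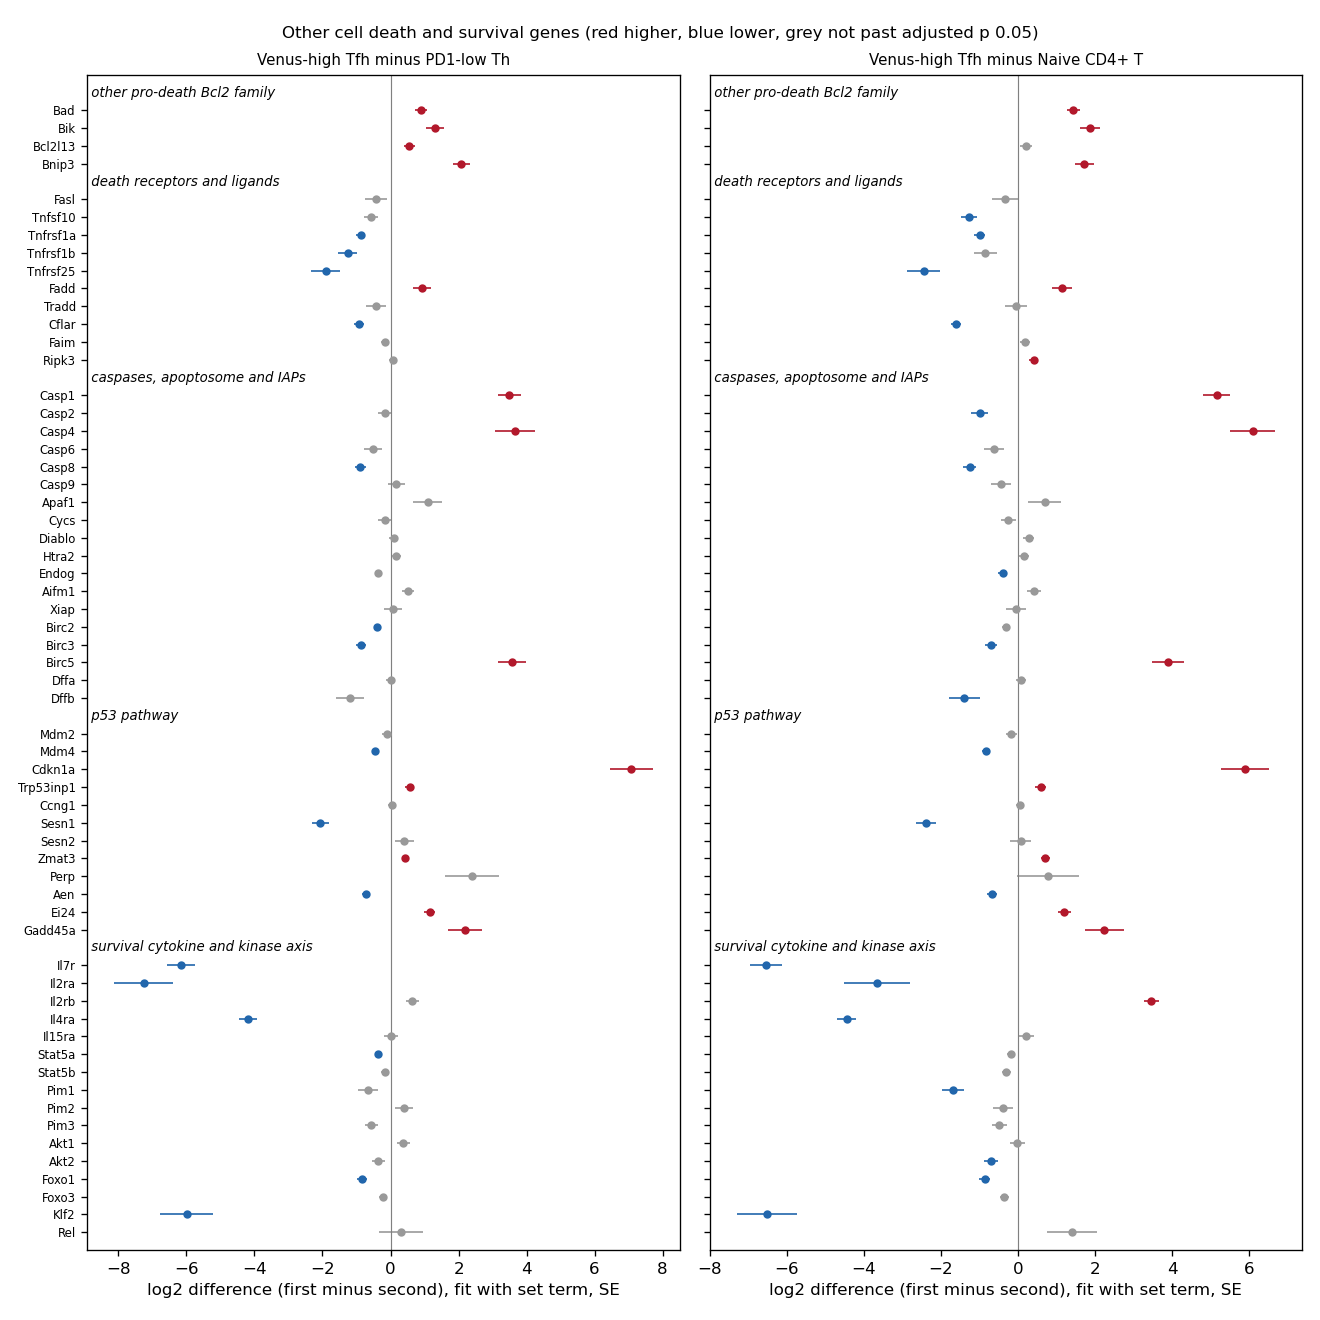
Log2 difference with SE (x axis, first group minus second, fit with the array-set term) of each kept gene of the 5 lists with measured members, in Venus-high Tfh minus PD1-low Th and minus naive cells, coloured by direction where the adjusted p is under 0.05. Il7r, Klf2 and Il4ra lie farthest below 0 against naive cells and Casp4, Cdkn1a and Casp1 farthest above.

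For Bcl2, the probe sets of other genes most like its leading probe set over the 12 arrays were those of Tsc22d3 (r = 0.93), Cds2 (0.91), A930005H10Rik (0.90), Chaserr (0.90) and Rnf130 (0.89), among 6463 with an SD of at least 1. For Fas they were Rab3gap2 (0.96), Ide (0.96, displaced between array sets), Gramd1c (0.96), Pde7a (0.95) and Camk2d (0.95), among 6468. After removal of the array-set means these 5 were at 0.81, 0.71, 0.83, 0.87 and 0.78 with Fas. Among the members, the Bcl2 leading probe set correlated with those of Mcl1 at 0.82, Bcl2l11 at 0.81, Bcl2l1 at -0.04, Bid at -0.05, Pmaip1 at -0.07, Fas at -0.12 and Bak1 at -0.18. The Fas probe set correlated with that of Bid at 0.90 and that of Bcl2l1 at 0.81, and after removal of the array-set means at 0.52 and -0.05. With Bcl2l11, Mcl1, Bak1 and Pmaip1 it was at 0.13, 0.14, 0.63 and 0.69, and after that removal at -0.80, -0.61, 0.56 and 0.19. These correlations are descriptions over arrays that share groups and array sets. After removal of the array-set means Bcl2 and Fas were at -0.75 and Bcl2 and Bak1 at -0.72.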

How the data were processed

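RNA from pooled, sorted CD4 T cells was hybridized to 12 Affymetrix arrays. The authors deposited 1 log2 signal for each probe set and array, made with GCRMA, per the submitters' processing notes; the grouping of arrays in that step and the genome build are not given in the sources used here. Of 45101 probe sets, 34958 had 1 gene symbol, 932 several and 9211 none in the platform annotation, and symbols were taken from the 34958. Control probe sets (64) were left out, and 22024 probe sets at 5 or more on at least 2 arrays were tested.

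Differences were fitted with limma 3.58.1 in R 4.3.3 over 5 groups and 12 arrays, with Benjamini-Hochberg adjustment over all 22024, and again with array set as a term. The array sets were found by clustering the arrays' signal quantiles into 3. The fits were tested on simulated data. Same-numbered Venus-high and Venus-low arrays had deviations from their group means correlated at 0.948, 0.973 and 0.951. The numbers coincide with the array sets, so a pairing by number and the array set cannot be told apart. Figures were drawn with Python 3.11.15 and matplotlib 3.10.9.

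All probe sets of the members are given. From each pathway list the text names genes past the threshold between the Tfh groups in the fit without the array-set term, and otherwise the 3 of smallest p in Venus-high Tfh minus naive. Genes that passed between the Tfh groups only with the term were added after their values were seen. For Bcl2 and Fas it names the 5 most correlated probe sets of other genes. The members and lists were chosen with earlier results of these data known. Alternatives covered the filter, a floor, normalization, the variance prior, the samples fitted, blocks on replicate number and array set, array weights, 1 probe set per gene and single arrays left out. Bax was not analysed here.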

Additional observations from a re-analysis of the deposited data

How the results depend on the processing

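Counts of calls are given in the order Venus-high minus Venus-low Tfh, Venus-low Tfh minus PD1-intermediate Th, PD1-intermediate minus PD1-low Th, PD1-low Th minus naive, Venus-high Tfh minus PD1-low Th and Venus-high Tfh minus naive, first over all probe sets and then over the members. As reported without the array-set term they were 92, 40, 439, 7, 1344 and 1712, and 0, 0, 0, 0, 1 and 1. Without a filter on low signals they were 89, 61, 385, 32, 1361 and 1695, and 0, 0, 0, 0, 1 and 1. With a filter at 7 on at least 2 arrays they were 74, 40, 400, 4, 1247 and 1642, and 0, 0, 0, 0, 1 and 1. With signals below 5 set to 5 they were 103, 80, 423, 12, 1261 and 1560, and 0, 0, 1, 0, 1 and 1. After a further quantile normalization they were 302, 71, 678, 27, 2297 and 2642, and 0, 0, 1, 0, 4 and 6. With a trended, robust variance prior they were 46, 13, 374, 3, 1331 and 1726, and 0, 0, 1, 0, 1 and 1. With the arrays of the 2 groups alone they were 0, 0, 0, 0, 312 and 551, and 0, 0, 0, 0, 0 and 0. With the replicate number as a block over all 12 arrays they were 158, 3081, 637, 9, 3389 and 2397, and 0, 1, 2, 0, 7 and 6. With array set as a fixed term they were 1978, 419, 1594, 55, 5327 and 6384, and 1, 0, 5, 0, 7 and 13. With array set as a random block they were 2455, 1053, 1959, 136, 5548 and 6567, and 0, 0, 5, 0, 10 and 14. Without the arrays of set 2 they were 0, 0, 135, 0, 439 and 745, and 0, 0, 0, 0, 0 and 0. The counts with array set as a fixed term, without the arrays of set 2, were 789, 331, 1905, 1358, 5071 and 7727, and 0, 0, 4, 0, 3 and 8. With array weights they were 73, 568, 604, 6, 924 and 1437, and 0, 0, 1, 0, 1 and 2. With 1 probe set per gene they were 130, 56, 397, 8, 1115 and 1356, and 0, 0, 0, 0, 0 and 0. The counts with array set as a fixed term, with 1 probe set per gene, were 1671, 631, 1266, 56, 3428 and 4066, and 1, 0, 1, 0, 3 and 5. Without the probe sets displaced in set 2 they were 159, 89, 543, 16, 1588 and 1955, and 0, 0, 1, 0, 1 and 1. The counts with array set as a fixed term, without the probe sets displaced in set 2, were 2323, 623, 1767, 68, 5621 and 6648, and 1, 0, 5, 0, 8 and 13. The fits with the array-set fixed term that also dropped arrays or probe sets, the fit without the displaced probe sets and the block over the 6 Tfh arrays were chosen after seeing the data. The cause of these differences was not tested.

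Same-numbered Venus-high and Venus-low arrays deviated together, and their numbers coincide with the array sets, so the block on the replicate number was also fitted over the 6 Tfh arrays, where 637 probe sets and 0 members were called. The numbers of the PD1-low and PD1-intermediate arrays do not follow the array sets, so the block over all 12 arrays sets arrays of different sets side by side. With that block Bcl2 1457687_at was at -2.97 (limma adjusted p = 0.0037) and Bcl2l11 1435448_at at -2.62 (0.0203) in Venus-high Tfh minus naive, -2.44 (0.00795) and -2.63 (0.0193) in Venus-high Tfh minus PD1-low Th, and Bcl2 1440770_at at -2.64 (0.0452) in PD1-intermediate minus PD1-low Th, which had not passed without it. Signs that changed between settings belonged to differences that did not pass in both directions. Pmaip1 in PD1-low Th minus naive was 0.79 as reported, against 0 with signals below 5 set to 5, -1.63 with array set as a fixed term, -1.53 with array set as a random block, -4.08 with the fixed term and without the arrays of set 2, -1.63 with the fixed term and 1 probe set per gene and -1.63 with the fixed term and without the probe sets displaced in set 2. Bak1 in Venus-low Tfh minus PD1-intermediate Th was -0.43 as reported, against 0.011 after a further quantile normalization, 0.40 with array set as a fixed term, 0.36 with array set as a random block, 0.44 with the fixed term and without the arrays of set 2, 0.40 with the fixed term and 1 probe set per gene and 0.40 with the fixed term and without the probe sets displaced in set 2. Bid in Venus-low Tfh minus PD1-intermediate Th was -0.37 as reported, against 0.092 after a further quantile normalization, 0.24 with array set as a fixed term, 0.21 with array set as a random block, 0.30 with the fixed term and without the arrays of set 2, 0.24 with the fixed term and 1 probe set per gene and 0.24 with the fixed term and without the probe sets displaced in set 2. Bcl2l11 in PD1-low Th minus naive was 0.0055 as reported, against -0.25 after a further quantile normalization, -0.90 with array set as a fixed term, -0.86 with array set as a random block, -1.97 with the fixed term and without the arrays of set 2, -0.90 with the fixed term and 1 probe set per gene and -0.90 with the fixed term and without the probe sets displaced in set 2. Bid in PD1-low Th minus naive was 0.37 as reported, against -0.013 after a further quantile normalization, -0.12 with array set as a fixed term, -0.095 with array set as a random block, -0.39 with the fixed term and without the arrays of set 2, -0.12 with the fixed term and 1 probe set per gene and -0.12 with the fixed term and without the probe sets displaced in set 2. Bcl2 1457687_at in Venus-low Tfh minus PD1-intermediate Th was 0.038 as reported, against -0.57 with the replicate number as a block over all 12 arrays and -0.23 with array weights. Pmaip1 in Venus-low Tfh minus PD1-intermediate Th was 0.78 as reported, against -0.79 with the replicate number as a block over all 12 arrays. Bcl2 1440770_at in Venus-low Tfh minus PD1-intermediate Th was 0.11 as reported, against -0.16 with the replicate number as a block over all 12 arrays and -0.11 with array weights. Pmaip1 in Venus-high Tfh minus PD1-low Th was 1.43 as reported, against -0.14 with the replicate number as a block over all 12 arrays. Fas in Venus-high Tfh minus PD1-low Th was 0.25 as reported, against -0.077 with the replicate number as a block over all 12 arrays and -0.054 without the arrays of set 2. Bak1 in Venus-high Tfh minus PD1-low Th was -0.35 as reported, against 0.31 with array set as a fixed term, 0.28 with array set as a random block, 0.52 with the fixed term and without the arrays of set 2, 0.31 with the fixed term and 1 probe set per gene and 0.31 with the fixed term and without the probe sets displaced in set 2. Bcl2 1457687_at in Venus-high minus Venus-low Tfh was -0.072 as reported, against 0.075 without the arrays of set 2 and 0.075 with the fixed term and without the arrays of set 2. Bcl2l11 in Venus-high minus Venus-low Tfh was -0.18 as reported, against 0.18 without the arrays of set 2 and 0.18 with the fixed term and without the arrays of set 2. Bcl2 1440770_at in Venus-high minus Venus-low Tfh was -0.046 as reported, against 0.054 without the arrays of set 2 and 0.054 with the fixed term and without the arrays of set 2. Bcl2 1440770_at in PD1-low Th minus naive was -0.29 as reported, against 0.22 without the arrays of set 2. Bid in Venus-high Tfh minus PD1-low Th was 0.32 as reported, against -0.15 without the arrays of set 2. Bcl2l1 in Venus-high Tfh minus naive was 0.47 as reported, against -0.28 with the fixed term and without the arrays of set 2. Bid in Venus-high Tfh minus naive was 0.69 as reported, against -0.0051 with the fixed term and without the arrays of set 2. Mcl1 in Venus-high minus Venus-low Tfh was 0.059 as reported, against -0.018 with array weights.

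The balance was described without a test. In Venus-low Tfh minus PD1-intermediate Th it was 0.014, and -0.044 after a further quantile normalization, -0.12 with signals below 5 set to 5, -0.17 without Bcl2, -0.0053 without Mcl1, -0.32 without Bcl2l11 and -0.017 without Bak1. In PD1-intermediate minus PD1-low Th it was -1.06, and -0.65 with signals below 5 set to 5, -1.27 with the mean of all kept probe sets, -0.35 without Bcl2, -1.62 without Bcl2l1, -1.47 without Bcl2l11 and -0.58 without Pmaip1. In Venus-high minus Venus-low Tfh it was 0.30, and -0.012 without Pmaip1. With 1 array left out in turn, without the array-set term, the number of calls ran from 16 to 111 in Venus-high minus Venus-low Tfh, from 4 to 38 in Venus-low Tfh minus PD1-intermediate Th, from 94 to 382 in PD1-intermediate minus PD1-low Th, from 0 to 24 in PD1-low Th minus naive, from 663 to 1291 in Venus-high Tfh minus PD1-low Th and from 979 to 1653 in Venus-high Tfh minus naive, and the number of member calls from 0 to 1 in PD1-intermediate minus PD1-low Th, from 0 to 4 in Venus-high Tfh minus PD1-low Th and from 0 to 4 in Venus-high Tfh minus naive. In Venus-high minus Venus-low Tfh these fits gave Bcl2 1457687_at from -0.80 to 0.43, Bcl2l11 from -0.87 to 0.35, Mcl1 from -0.055 to 0.18, Bak1 from -1.22 to 0.11, Bid from -0.086 to 0.51, Fas from -0.22 to 0.43, Bcl2 1440770_at from -0.47 to 0.33 and the balance from -0.21 to 0.90. In Venus-low Tfh minus PD1-intermediate Th these fits gave Bcl2 1457687_at from -0.46 to 0.35, Bak1 from -0.82 to 0.19, Pmaip1 from -0.56 to 2.19, Bcl2 1440770_at from -0.052 to 0.39 and the balance from -0.59 to 0.35. In PD1-intermediate minus PD1-low Th these fits gave Mcl1 from -0.20 to 0.040. In PD1-low Th minus naive these fits gave Bcl2l11 from -0.46 to 0.47, Mcl1 from -0.18 to 0.061, Bid from -0.085 to 0.83, Pmaip1 from -0.044 to 1.63 and Bcl2 1440770_at from -0.60 to 0.030. In Venus-high Tfh minus PD1-low Th these fits gave Bcl2l1 from -1.32 to 0.14, Bak1 from -0.87 to 0.35, Bid from -0.14 to 0.77, Pmaip1 from -0.37 to 2.55 and Fas from -0.21 to 0.71. The number of arrays limits the precision of every value, and 3 or 2 arrays a group leave 7 residual degrees of freedom, or 5 with the array-set term.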
